A study of Homo sapiens with 7 samples.

Results

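The C/EBP family genes CEBPA, CEBPB, CEBPD, CEBPE and CEBPG are 5 of the 20162 protein-coding genes in the GRCh37 annotation. They were taken by name, and the peak summits of 5 ChIP-seq lists were counted within the gene body and 5 kb to either side, and within 50 kb as a wider view. The data come from Kasumi-1, an established leukemia cell line of myeloblast type that carries the t(8;21) translocation and expresses both AML1 (RUNX1) and the fusion protein AML1-ETO. Cells were untreated and in log phase, and all lists come from this single line. AML1 was precipitated with an antibody to its C-terminus, a part the fusion protein lacks, and AML1-ETO with an antibody to ETO. The co-repressor N-CoR, the co-activator p300 and H3K4me3, a histone mark of active promoters, were precipitated with their own antibodies. The series has 7 samples, of which H3K27me3 and input were not used here. The authors pooled the biological replicates of each antibody, so that 1 list stands for each protein, there is no spread between replicates, and no test between antibodies was possible. Peak names in the N-CoR list carry the prefix of the AML1-ETO list, and those in the p300 and H3K4me3 lists the prefix of AML1, so each list was assigned by the sample it was deposited under. The lists give positions and a peak number, with no height, score or read depth. A gene without a summit is therefore a gene without a peak past the authors' threshold, which is not the same as a gene without binding.

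C/EBP proteins are basic leucine zipper transcription factors that bind DNA as dimers with each other. C/EBPα drives progenitors into the granulocyte lineage and C/EBPε is required for their late maturation, whereas C/EBPβ acts when granulocytes are produced on demand and in macrophages. C/EBPδ is induced in inflammation, and C/EBPγ lacks a strong activation domain and pairs with other bZIP proteins. Loss of C/EBPα activity is a known feature of t(8;21) leukemia, and a distal enhancer downstream of CEBPA is known to drive the gene in myeloid cells.

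H3K4me3 was found at all 5 family genes and AML1 at 1. Within 5 kb, H3K4me3 summits were present at 5 of 5 genes (11 summits), N-CoR at 4 (5 summits), p300 at 4 (5 summits), AML1-ETO at 3 (5 summits) and AML1 at 1 (1 summit). The same window held at least 1 summit at 68.0% of all protein-coding genes for H3K4me3, 26.7% for N-CoR, 45.5% for p300, 41.4% for AML1-ETO and 34.9% for AML1. The window is longer at longer genes, and the family genes are short, from 1252 bp (CEBPD) to 9002 bp (CEBPG). Among the 5255 protein-coding genes with a body of at most 10 kb, these shares were 49.9, 16.9, 33.6, 26.7 and 21.6%, in the same order. The part of gene length in these differences was not tested, and the short genes were not matched to the family for H3K4me3. With 5 chosen genes the counts are a description. N-CoR had the widest gap in percentage points to both backgrounds. In the first 50% of its list in deposited order, which is not known to follow peak strength, 1 of its 5 summits remained, that at CEBPD.

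The combinations differed from gene to gene. At least 2 H3K4me3 summits within 5 kb were found at 4 family genes and at 35.1% of protein-coding genes, and at least 3 at CEBPA and CEBPG and at 13.0%. H3K4me3 without AML1 or AML1-ETO was found at CEBPA and CEBPB and at 25.5% of protein-coding genes. AML1-ETO without AML1 was found at CEBPE and CEBPG and at 13.5%. Every AML1-ETO count at CEBPE here rests on the window, with 0 summits within 2 kb of the body and 0 within 5 kb of the 5' end. AML1-ETO and N-CoR summits were both within 5 kb of CEBPD, CEBPE and CEBPG, as at 22.7% of protein-coding genes and 13.1% of the short ones. They shared a site at CEBPD alone, as at 19.4% of protein-coding genes.

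Within 50 kb, N-CoR, p300 and H3K4me3 had summits at 5 of 5 genes, AML1-ETO at 4 and AML1 at 3. Of all protein-coding genes, 48.7% had N-CoR in this window, 64.4% p300, 80.9% H3K4me3, 66.5% AML1-ETO and 59.8% AML1, and of the short genes 43.1, 57.0, 68.7, 58.4 and 52.0%. A site shared by AML1-ETO and N-CoR was found in this window at CEBPA and CEBPD and at 39.1% of protein-coding genes, and a site of all 4 proteins at the same family genes and at 19.3%. The wider windows hold 54 summits over the 5 genes, 38 of them of the 4 proteins. CEBPA alone has 17 of these 38, against 7 at CEBPE, 5 at CEBPB, 5 at CEBPD and 4 at CEBPG. The 50 kb windows of CEBPA and CEBPG, neighbours on chromosome 19, overlap in part, but 0 summits fall in both.

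**Figure D1:**
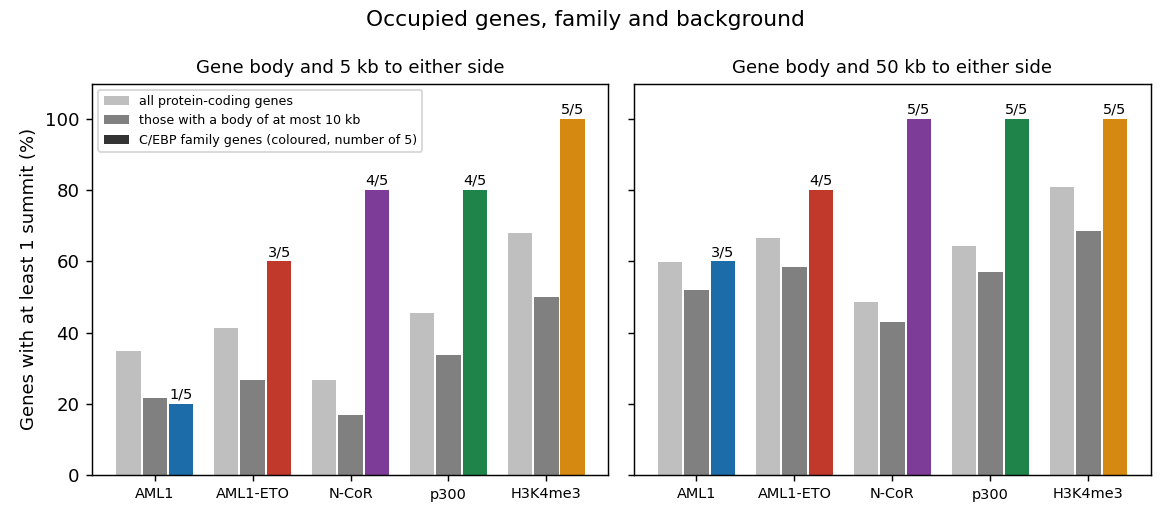
Percentage of genes with at least 1 summit (y axis) of each list (x axis), within 5 kb (left) and 50 kb (right) of the gene body; light bars are all protein-coding genes, dark bars those with a body of at most 10 kb, and coloured bars the 5 C/EBP family genes with their number above. Within 5 kb, N-CoR stands at 4 of 5 family genes against 26.7% of all genes and 16.9% of the short ones. AML1 stands at 1 of 5, against 34.9% and 21.6%.

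CEBPA (ENSG00000245848), the gene of the granulocyte commitment factor, lies on the reverse strand at chr19:33790840-33793440. AML1, AML1-ETO and N-CoR had summits in its distal sequence but not within 5 kb, whereas p300 had summits in both. All 3 H3K4me3 summits lie within 1110 bp of the 5' end, at 516 bp upstream and at 320 and 1110 bp into the gene, and both latter positions are in the coding exon. The only other summits within 5 kb are of p300, at 39 and 617 bp upstream of the 5' end. The latter lies in an exon of CEBPA-DT, the divergent long non-coding RNA, 101 bp from an H3K4me3 summit. No AML1, AML1-ETO or N-CoR summit lies within 5 kb, and the nearest of these is an AML1-ETO summit 15.4 kb downstream.

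The 13 summits of AML1, its fusion and N-CoR, with 2 of p300, form 6 sites between 15.4 and 41.6 kb downstream of the CEBPA 5' end, in sequence between genes. A site here is a run of windows, 50 bp to either side of each summit, that share at least 1 bp. None of the 6 has an H3K4me3 summit nearer than 14.3 kb. The 7 summits of the farthest pair of sites are nearer to the 5' end of SLC7A10, at 35.1 to 35.9 kb, than to that of CEBPA. AML1-ETO is present at all 6, N-CoR at 4, AML1 at 3 and p300 at 2. At least 6 AML1-ETO summits within 50 kb were found at 8.53% of protein-coding genes, and at least 2 sites of all 4 proteins at 5.55%.

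The site farthest from the gene, 41.6 kb downstream, lies in the region of the known distal enhancer and holds all 4 proteins. It is chr19:33751781-33751941 of GRCh37, 161 bp long. The AML1-ETO summit is at 33751831, the N-CoR summit 40 bp from it, the p300 summit 45 bp and the AML1 summit 61 bp from it. N-CoR and p300 stand 5 bp apart. The AML1-ETO peak is number 63 of 18087 in its list, and the N-CoR, AML1 and p300 peaks are number 499 of 10004, 1050 of 11692 and 2835 of 11020. What the order of the lists stands for is not given in the sources used here. A second site follows at chr19:33752559-33752695, 40.8 kb downstream, where AML1, AML1-ETO and N-CoR summits lie within 37 bp of each other and the nearest p300 summit is 756 bp from that of AML1-ETO. The AML1-ETO summits of these neighbouring sites are 801 bp apart. In the whole list, 10.0% of AML1-ETO summits have another within 1000 bp.

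The sequences of these neighbouring sites are shown because 7 of the 17 protein summits at CEBPA lie in them. They are read 5′ to 3′ on the forward strand of GRCh37. Capitals mark exact matches on either strand. The Runx forms searched were TGTGGT and, in addition, TGCGGT as well as GTGGTT, the last of which overlaps TGTGGT where a further T follows it. The PU.1 letters were GAGGAA and the ETS letters were GGAAGT, which can overlap each other. The C/EBP letters were TTGCNNAA, the GATA letters were AGATAA and the AP-1 letters were TGANTCA.
CEBPA, 41.6 kb downstream: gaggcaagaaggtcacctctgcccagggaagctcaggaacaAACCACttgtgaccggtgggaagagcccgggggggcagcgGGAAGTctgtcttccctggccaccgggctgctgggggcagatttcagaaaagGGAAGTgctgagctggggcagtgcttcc
CEBPA, 40.8 kb downstream: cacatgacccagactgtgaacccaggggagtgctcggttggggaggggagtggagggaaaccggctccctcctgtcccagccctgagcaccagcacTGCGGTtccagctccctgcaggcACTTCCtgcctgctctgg
Neither site holds TGTGGT or a PU.1, C/EBP, GATA or AP-1 match. The first holds GTGGTT once, read on the reverse strand as AACCAC, and GGAAGT at 2 positions. The second holds TGCGGT once and GGAAGT once, read as ACTTCC. Both sites are longer than the 100 bp AML1-ETO window within them. That window holds GGAAGT at 1 position in the first site and at 0 in the second, and it holds the Runx form in each. Of all 100 bp AML1-ETO windows, 31.3% hold TGTGGT (95% Clopper-Pearson interval 30.6 to 32.0%), 25.9% GTGGTT (25.3 to 26.6%), 9.48% TGCGGT (9.05 to 9.91%) and 26.9% GGAAGT (26.3 to 27.6%). These intervals cover counting error over windows only. The added Runx forms and the ETS letters were searched for after the sequences had been seen.

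The other site of all 4 proteins at CEBPA is 28.4 kb downstream, at chr19:33764956-33765167. The p300, AML1-ETO and AML1 summits lie there within 19 bp, at 33765006, 33765019 and 33765025. The N-CoR summit, at 33765118, stands 99 bp from that of AML1-ETO, at the limit where windows still touch, and with windows of 25 bp it is a site of its own. At 33.8 kb downstream, AML1-ETO (number 8839) and N-CoR (number 7318) summits are 31 bp apart with neither AML1 nor p300 within 5 kb. The remaining sites, 21.8 and 15.4 kb downstream, are of AML1-ETO alone. Their peaks are number 17651 and number 3245 of the list, and the nearest summit of another protein is 6521 and 12913 bp away.

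The AML1-ETO window 21.8 kb downstream, chr19:33771589-33771688, is shown because it is the one at CEBPA with the Runx form TGTGGT.
CEBPA, 21.8 kb downstream: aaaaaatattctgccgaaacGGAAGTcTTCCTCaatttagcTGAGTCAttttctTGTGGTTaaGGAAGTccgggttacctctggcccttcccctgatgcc
It holds the Runx form TGTGGT, here followed by a further T. The PU.1 letters are read on the reverse strand as TTCCTC, the ETS letters occur at 2 positions, and the AP-1 match is TGAGTCA. The lack of TGTGGT at the other CEBPA sites depends on the width of the window. With 100 bp to either side of the summit, TGTGGT was found in 2 of the 5 AML1 windows, both at CEBPA, and in 4 of the 12 AML1-ETO windows, against 48.0 and 39.9% of all such windows.

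**Figure D2:**
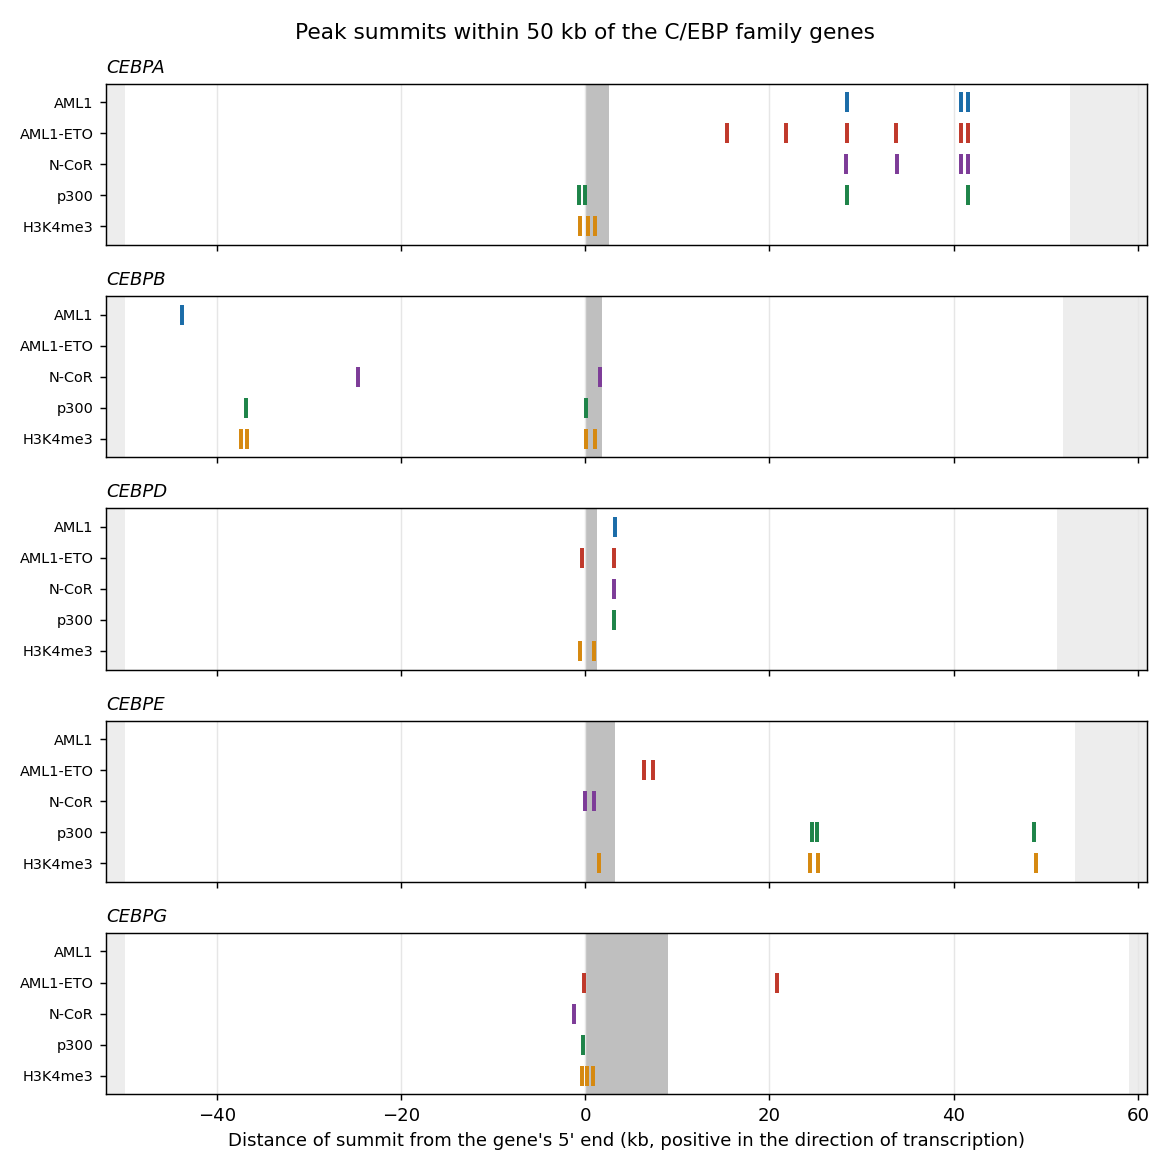
Summits of each list (rows) by their distance in kb from the 5' end of each gene (x axis, positive in the direction of transcription); dark grey is the gene body and light grey lies beyond the 50 kb window. At CEBPA the summits of AML1, AML1-ETO and N-CoR lie 15.4 to 41.6 kb downstream, and those of H3K4me3 at the 5' end.

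CEBPD (ENSG00000221869), the inflammation-induced member, lies on the reverse strand at chr8:48649475-48650726 and was the only family gene with AML1 within 5 kb. All 4 proteins meet at a single site 3.2 kb downstream of the 5' end, chr8:48647483-48647631, inside the last part of the neighbouring gene SPIDR and in one of its introns. The summits are at 48647533 (AML1), 48647542 (N-CoR), 48647551 (AML1-ETO) and 48647582 (p300), 49 bp from first to last. AML1-ETO and N-CoR are 9 bp apart and are number 548 and number 664 of their lists. The AML1 peak is number 1286 and the p300 peak number 3054. A site of all 4 proteins within 5 kb was found at 8.54% of protein-coding genes. A second AML1-ETO summit, number 8988, lies 332 bp upstream of the 5' end with no other protein within 3476 bp. H3K4me3 summits stand at 611 bp upstream and 922 bp into the gene, 279 bp and 1254 bp from this AML1-ETO summit. The 4-protein site is 2253 bp from H3K4me3, measured from the AML1-ETO summit. No further summit of any list lies within 50 kb of CEBPD.

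**Figure D3:**
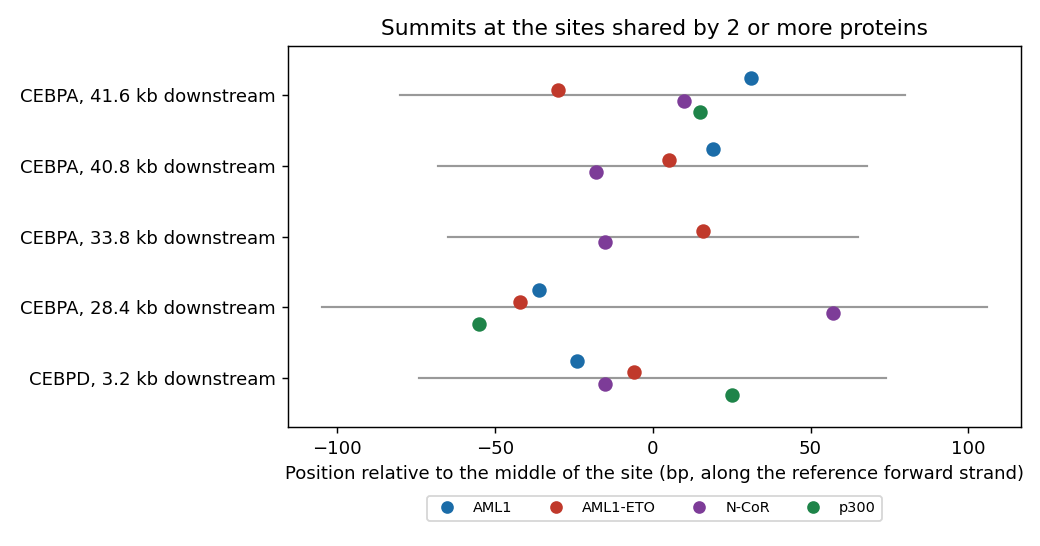
Summits of the 4 proteins (points) at the 5 sites shared by 2 or more proteins, by position in bp from the middle of the site (x axis); grey lines are the merged windows, and points are offset vertically for legibility. The summits span 61 bp at the farthest CEBPA site and 49 bp at CEBPD, and 112 bp at the CEBPA site 28.4 kb downstream, where N-CoR stands apart.

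CEBPE (ENSG00000092067), needed for late granulocyte maturation, lies on the reverse strand at chr14:23586245-23589465. It had AML1-ETO and N-CoR within 5 kb but at different positions. The N-CoR summits are at 23588527 (number 6683) and 23589459 (number 9814), and the AML1-ETO summits at 23583037 (number 14576) and 23582069 (number 7068). AML1-ETO lies beyond the 3' end of the gene, 6.43 and 7.40 kb from its 5' end, and the nearest N-CoR summit is 5490 bp from the nearer of these. AML1-ETO and N-CoR both within 5 kb, with no site shared by them, were found at CEBPE and CEBPG, at 3.38% of protein-coding genes and at 2.28% of the short ones. The annotated 5' end of the gene belongs to a transcript without a defined coding part. The coding transcript begins at 23588464, and from there the N-CoR summits lie 63 and 995 bp upstream and the only H3K4me3 summit, at 23587970 in a coding exon, 494 bp downstream. No AML1 summit lies within 50 kb, the nearest being 113024 bp from the 5' end. All 3 p300 summits and the other 3 H3K4me3 summits of the wider window have their nearest protein-coding 5' end at another gene, ACIN1, C14orf119 or CDH24.

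The N-CoR window just upstream of the coding transcript, chr14:23588477-23588576, and the AML1-ETO window 7.40 kb from the 5' end, chr14:23582019-23582118, are shown to set the unshared sites side by side.
CEBPE, N-CoR: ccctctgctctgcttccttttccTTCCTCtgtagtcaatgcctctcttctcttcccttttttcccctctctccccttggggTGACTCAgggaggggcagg
CEBPE, AML1-ETO: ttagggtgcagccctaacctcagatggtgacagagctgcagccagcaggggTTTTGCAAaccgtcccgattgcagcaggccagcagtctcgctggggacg
The N-CoR window holds the PU.1 sequence GAGGAA, read as TTCCTC, and the AP-1 sequence TGACTCA. Of all N-CoR windows, the share with GAGGAA is 30.8% (29.9 to 31.7%) and that with TGANTCA 7.29% (6.79 to 7.81%). The AML1-ETO window holds the C/EBP sequence TTGCNNAA, read on the reverse strand as TTTTGCAA, and no Runx form. TTGCNNAA is in 8.75% of all AML1-ETO windows (8.34 to 9.17%).

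CEBPG (ENSG00000153879), the member without a strong activation domain, lies on the forward strand at chr19:33864591-33873592 and had AML1-ETO, p300 and H3K4me3 summits within 370 bp upstream of its 5' end. The AML1-ETO summit, number 5529, is 119 bp upstream and the p300 summit, number 3694, 236 bp upstream. They are 117 bp apart, just beyond the distance at which their windows touch. H3K4me3 summits are 370 bp upstream and 196 and 846 bp downstream, the nearest being 251 bp from AML1-ETO and 134 bp from p300. N-CoR, number 7830, lies farther out, 1172 bp upstream and 1053 bp from AML1-ETO. A further AML1-ETO summit, number 14206, lies 20.8 kb downstream in an intron of PEPD with no other protein nearby. The nearest AML1 summit is 99566 bp from the 5' end.

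The AML1-ETO and N-CoR windows upstream of CEBPG, chr19:33864422-33864521 and chr19:33863369-33863468, are shown because they differ in composition.
CEBPG, AML1-ETO: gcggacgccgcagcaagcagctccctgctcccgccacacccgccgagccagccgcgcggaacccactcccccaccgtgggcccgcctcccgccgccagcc
CEBPG, N-CoR: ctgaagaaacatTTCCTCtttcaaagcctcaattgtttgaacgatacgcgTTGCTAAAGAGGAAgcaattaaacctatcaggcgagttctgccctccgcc
G and C make up 80% of the AML1-ETO window, which holds none of the motifs, and 45% of the N-CoR window, which holds GAGGAA at 2 positions and TTGCNNAA as TTGCTAAA. The median over all AML1-ETO windows is 55% G and C, and the middle of the list runs from 48% (lower quartile) to 63% (upper quartile). For N-CoR windows the median is 53%.

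CEBPB (ENSG00000172216), the on-demand granulopoiesis factor, lies on the forward strand at chr20:48807367-48809205 and was the only family gene without AML1-ETO within 50 kb. AML1-ETO comes no nearer to its 5' end than 80454 bp. H3K4me3 summits stand 132 and 1084 bp into the gene, and a p300 summit, number 10652, lies 42 bp into it. An N-CoR summit, number 6967, is 1616 bp into the gene, in the part of the exon beyond the coding sequence and 532 bp from H3K4me3. In the wider window, a further N-CoR summit, number 8842, lies 24.7 kb upstream in an exon of the long non-coding RNA LINC01275. An AML1 summit, number 10432, lies 43.7 kb upstream in an intron of PEDS1. The remaining summits of the window, 1 of p300 and 2 of H3K4me3, are at the 5' end of PEDS1. All 5 protein sites in the CEBPB window are of 1 protein each.

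**Figure D4:**
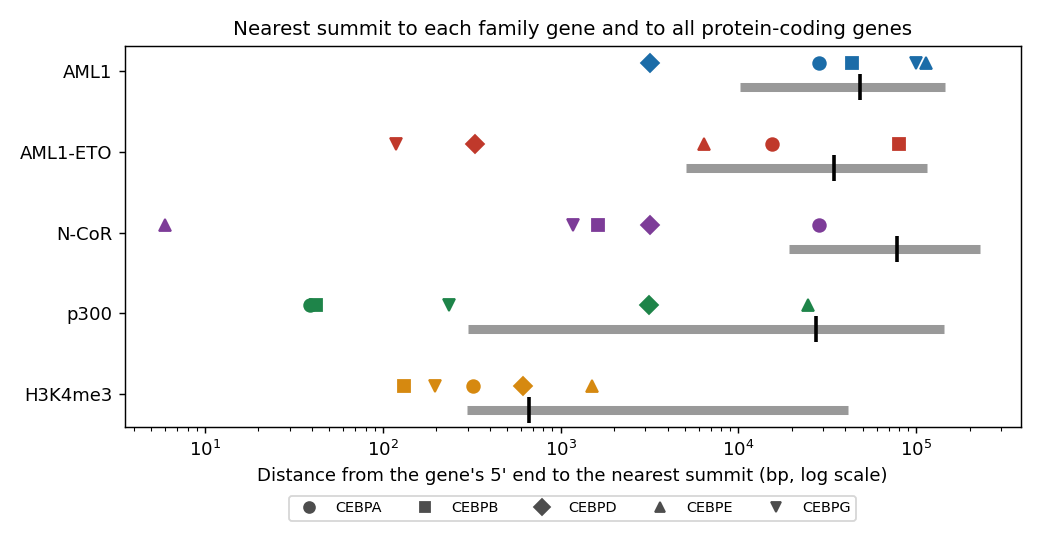
Distance in bp, on a log scale, from the 5' end of each family gene to the nearest summit of each list (coloured symbols, 1 per gene), above the median (black tick) and the 25th to 75th percentiles (grey bar) of all protein-coding genes. The nearest N-CoR summit is 6 to 28322 bp from the family genes, against a median of 78254 bp. The 6 bp, at CEBPE, are counted from a transcript without a defined coding part, and from the coding transcript the distance is 63 bp.

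Distances to the nearest summit set the genes beside all others. The nearest N-CoR summit was 6 bp (CEBPE), 1172 bp (CEBPG), 1616 bp (CEBPB), 3184 bp (CEBPD) and 28322 bp (CEBPA) from the 5' end, each nearer than the median of 78254 bp over protein-coding genes. The 6 bp at CEBPE are counted from the longer transcript, and from its coding transcript the nearest N-CoR summit is 63 bp away. The nearest p300 summit was also nearer than the median of 27258 bp at 5 of 5 genes, with a range of 39 to 24608 bp. AML1-ETO was nearer than its median of 34720 bp at 4 genes, CEBPB being the exception. AML1 was nearer than its median of 48621 bp at 3 genes. The distance to H3K4me3 ranged from 132 to 1495 bp, against a median of 663 bp, and that of CEBPE, the largest, rests on the longer transcript. No test was made on these distances.

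Over the family, the 4 proteins formed 26 sites within 50 kb. Of these, 3 held all 4 proteins, 11.5% (2.45 to 30.2%), against 7.76% (7.46 to 8.07%) of the 29448 sites in the genome. Sites of AML1-ETO with N-CoR numbered 5, 19.2% (6.55 to 39.4%), against 24.2% (23.7 to 24.7%), and sites of 1 protein 21, 80.8% (60.6 to 93.4%), against 57.0% (56.4 to 57.6%). These intervals cover counting error only, sites of a locus are not independent, and no test was made. The 5 sites shared by 2 or more proteins are at CEBPA and CEBPD. This rests on windows of 50 bp to either side: with 100 or 250 bp, the AML1-ETO and p300 summits upstream of CEBPG, 117 bp apart, merge into a 6th shared site, and this one lies near H3K4me3. An H3K4me3 summit lay within 1000 bp of 13 of the 26 sites, 50% (29.9 to 70.1%), against 42.2% (41.6 to 42.8%) in the genome. With 50 bp windows it lay near 0 of the 5 shared sites (0 to 52.2%), and of the 12664 sites shared by 2 or more proteins in the genome it lay near 31.8% (31.0 to 32.6%). Of the 12 AML1-ETO windows near family genes, 5 overlapped N-CoR, 4 AML1 and 3 p300. In the whole AML1-ETO list these shares were 38.9, 46.2 and 21.8%. Of the 10 N-CoR windows near family genes, 5 overlapped AML1-ETO, 4 AML1 and 2 p300. In the whole N-CoR list these shares were 70.3, 55.0 and 37.4%.

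TGTGGT was found in 2 of the 12 AML1-ETO windows, at CEBPA 21.8 kb downstream and in the PEPD intron near CEBPG, and in 0 of the 5 AML1 windows, against 31.3 and 40.6% of all windows of these lists. GAGGAA was found in 4 of the 10 N-CoR windows, at CEBPD, CEBPE and CEBPG, against 30.8% of the list. It was in 1 of the AML1-ETO and 1 of the AML1 windows, against 26.0 and 25.6%. With 100 bp to either side, it was in 4 of the 12 AML1-ETO windows, against 39.9%. The ETS letters GGAAGT, searched for after the sequences had been seen, were in 4 of the 5 AML1 windows, against 27.1%. They were in 3 of the 12 AML1-ETO, 3 of the 10 N-CoR and 1 of the 11 p300 windows, against 26.9, 32.0 and 18.9%. The AP-1 sequence was found in 3 of the 10 N-CoR windows, at CEBPA, CEBPB and CEBPE, against 7.29%, and in 2 of the 12 AML1-ETO windows, at CEBPA and CEBPG, against 5.19%. The C/EBP sequence was found in 1 AML1-ETO window (CEBPE), against 8.75% of the list, and in 1 N-CoR window (CEBPG), against 12.2%. The GATA sequence was in none of the 38 windows, and in 1.63% (p300) to 3.54% (AML1) of the windows of the lists. The 11 p300 windows held no TGTGGT, PU.1, C/EBP or AP-1 sequence, against 6.66, 17.7, 4.97 and 2.73% of all p300 windows. With so few windows, 17 of which lie in sites shared by 2 or more proteins, these counts are a description. A match to these letters is not a measured binding site, and windows without a match may hold other forms.

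Among protein-coding genes, those whose 10 summit counts (5 lists within 5 kb and within 50 kb) were most like a family gene were found by the sum of absolute differences. CCDC25 and KCNJ5 matched CEBPD exactly, as did 5 genes in all. CNBD2 and HAP1 differed from CEBPB by a sum of 1, and FANCM and FUT8 from CEBPG by 1. For CEBPA the smallest sum was 3 (GID8 and LSM10, among 4 genes), and for CEBPE it was 3 (DGCR2), followed by ASCC2 at 4. These likenesses rest on 5 lists of a single cell line.

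Genes around the family in its pathway were counted in the same way. Of 14 partners and regulators of C/EBP proteins, all 14 had H3K4me3 within 5 kb, 11 p300 (78.6%), 8 N-CoR (57.1%), 8 AML1 (57.1%) and 7 AML1-ETO (50.0%). The shares of all protein-coding genes were 68.0, 45.5, 26.7, 34.9 and 41.4%, in the same order. TRIB1, whose protein directs C/EBPα to degradation, had the most AML1-ETO, with 3 summits. BATF, CALR, DDIT3, FBXW7 and GSK3B had 2 each. TRIB1 had 2 AML1, 2 N-CoR, 1 p300 and 1 H3K4me3 summit. Of 23 genes known as C/EBP targets in myeloid cells, 14 had AML1-ETO (60.9%), 14 p300 (60.9%), 11 H3K4me3 (47.8%), 10 N-CoR (43.5%) and 10 AML1 (43.5%). Their share with H3K4me3 lay below the 68.0% of all protein-coding genes and near the 49.9% of the short ones. The short genes had 26.7% with AML1-ETO, 33.6% with p300, 16.9% with N-CoR and 21.6% with AML1, each below the share of the targets. The targets were not matched by length, and a summit within 5 kb of more than 1 neighbouring target counts at each of them. IL6R, a cytokine receptor gene, had 7 AML1-ETO and 3 N-CoR summits, CSF1R, the receptor of a monocyte growth factor, 5 and 3, and GFI1, a granulocyte transcription factor gene, 4 and 4. CSF1R had 0 H3K4me3 summits in this window. Of 11 genes for factors known to bind at the CEBPA enhancer, all 11 had H3K4me3, 10 AML1 (90.9%), 10 p300 (90.9%), 9 AML1-ETO (81.8%) and 9 N-CoR (81.8%). RUNX1 had 26 AML1-ETO summits, FLI1 9 and ERG 6. These are long genes, and the part of gene length in these counts was not tested.

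The label of the line was checked by H3K4me3 within 5 kb of the 5' end of marker genes. All 7 myeloid progenitor markers had a summit there (CD34, KIT, MPO, CD33, SPI1, CSF3R and CD38). Of the 3 T cell markers only CD8A had one, and of the 3 erythroid markers only EPOR. The 5 markers of other tissues (ALB, INS, MYH7, GFAP and KRT5) had none. Of all protein-coding genes, 60.6% had a summit there, so a summit at a marker says little alone.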

How the data were processed

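The deposited files are BED lists of genome positions, 1 per antibody, with a start counted from 0, an end and a numbered name. Every interval is 100 bp wide, and the summit was taken as its start plus 50; positions in the text are counted from 1. Per the study's methods and the submitters' processing notes, the authors aligned reads to GRCh37 (hg19) with Bowtie 0.12.8, merged replicates by antibody, and ran MACS2 2.0.10.20131216 for peak calling under a stringent p-value threshold. CASAVA 1.6 is also named in the notes. Other units of measurement, such as heights, are not in the files used here, and read depth was not used.

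Genes come from GENCODE release 44 mapped to GRCh37, with 20162 protein-coding genes on the nuclear chromosomes. The 5' end is that of the gene record. Summits were counted within 5 kb and 50 kb of the gene body. Windows of the 4 proteins that share at least 1 bp were merged into sites. Motifs were exact matches on either strand of GRCh37. The percentage of all genes or windows with the same feature serves as background. The intervals are exact Clopper-Pearson 95% intervals. The counting was tested on simulated data. The members, gene lists and motifs were chosen with earlier results of these data known. Genes named are the 5 members, for each member 2 genes with the nearest 10 counts, and for each pathway list the 3 genes with the most AML1-ETO summits, ties in alphabetical order. DDIT3, FBXW7 and GSK3B, tied with genes so named, were added after their values were seen. Other genes are named as markers or as the annotation nearest to a summit. Alternatives were other windows around genes and summits, other distances to H3K4me3, the first part of each list in deposited order, and other backgrounds. Computation was done in Python 3.11.15 with SciPy 1.17.1 and numpy 2.4.6, sequences were read with pysam 0.24.0, and figures were drawn with matplotlib 3.10.9.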

Additional observations from a re-analysis of the deposited data

How the results depend on the processing

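No paired analysis was possible because each antibody has a single pooled list. The lists hold no score, so a stricter threshold could not be set, and the first 50% of each list in deposited order was taken, although nothing in the sources used here says that the order follows peak strength. This part of the lists, which holds fewer peaks by construction, gave 1 N-CoR and 3 p300 summits over the family within 5 kb (from 5 each), and 4 N-CoR and 7 p300 within 50 kb (from 10 and 11). The AML1-ETO total of 5 fell to 3 within 2 kb of the body and also to 3 within 5 kb of the 5' end, since the CEBPE summits lie beyond its 3' end. Within 25 kb there were 1 AML1, 6 N-CoR and 7 p300 summits. Within 100 kb there were 10 AML1, 23 AML1-ETO, 21 p300 and 28 H3K4me3 summits. Counting only summits whose nearest protein-coding 5' end is the member, chosen after the data were seen, left 2 AML1 and 6 p300 summits within 50 kb.

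The background of genes with a summit within 5 kb fell for AML1 to 21.6%, for AML1-ETO to 26.7%, for N-CoR to 16.9%, for p300 to 33.6% and for H3K4me3 to 49.9% among genes of at most 10 kb, and to 19.7, 24.9, 14.3, 36.8 and 60.6% around 5' ends. With 100 bp to either side of the summit, 4 of the 12 AML1-ETO windows held TGTGGT (39.9% of all such windows), 4 GAGGAA (39.9%), 2 TTGCNNAA (14.2%) and 1 AGATAA (7.14%). With TGCGGT and GTGGTT also counted in the narrower window, a choice made after the data were seen, 4 of the 12 windows held a Runx form, against 45.9% of all AML1-ETO windows. Merging windows of 25, 100 or 250 bp to either side left 25 to 27 sites and 2 or 3 sites of all 4 proteins. Of 75 totals recomputed, 45 stayed within 1.5 times, and of 215 values of single members 166 did. Wider windows hold more by construction, and other causes were not tested. The family has too few summits for a share of them to be precise, and a missing summit may lie just under the peak threshold.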
